A study of Sus scrofa with 3 samples.

Results

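The 7 leukocyte miRNAs miR-142, miR-146a, miR-146b, miR-150, miR-155, miR-223 and miR-342 were followed through pig liver. The rule that picked them used names and no measured value, but it was set with earlier results of these data known. It takes every table line of a known miRNA hairpin that bears 1 of these names. The members are 7 of the 677 hairpin names in the tables. They took 73 table lines. Of their arms, the 5p and 3p strands cut from the same hairpin, 12 had a read, and no 3p read was listed for miR-146a or miR-150. A mean of 10 counts per 1000000 named miRNA reads (CPM) over the 3 libraries was reached by 8 of the 12, and miR-146b-3p, miR-155-3p, miR-223-5p and miR-342-5p lay under it.

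The RNA came from liver of untreated male pigs of the Jinhua breed, with no genetic change named, at embryonic day 90 (E90), postnatal day 30 (P30d, weaning) and postnatal year 7 (P7y). There was 1 library at each stage. Tissue of 3 pigs is named for each stage, and the labels do not say whether their RNA was pooled. Every comparison is therefore between libraries, without a replicate check and without a p-value. Intervals are 95% and reflect the counting of reads only. PCR copies are not independent molecules, so the intervals may be too narrow even for counting error.

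Depth was 9406525 reads for the E90 table, 3775157 for P30d and 9935073 for P7y, and 98.3%, 96.0% and 99.9% of these were reads of named miRNAs. In that order, a count of 0 allowed a level of up to 0.325, 0.828 and 0.302 CPM. miR-122-5p, the characteristic miRNA of hepatocytes, checked the label of liver: it held 12.8% of the named reads at E90, 21.4% at P30d and 3.79% in the P7y library. The median log2 CPM ratio of the 324 miRNAs that reached a mean of 10 CPM was -0.11 from E90 to P30d, -1.36 from P30d to P7y and -1.06 from E90 to P7y. Several ratios into P7y are therefore also given relative to that median.

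As background, miRNAs are short RNAs that pair through their seed, bases 2 to 8, with messenger RNAs and lower their output. The 7 miRNAs are known from blood cells: miR-142 is made in all of them, miR-223 in granulocytes, monocytes and macrophages, and miR-150 and miR-342 in lymphocytes. miR-342 is also found in maturing granulocytes, so its name as lymphoid below is a convention. miR-146a and miR-146b dampen signalling from Toll-like receptors, and miR-155 is made when lymphocytes or macrophages are activated. The fetal liver is a site of blood formation before bone marrow takes over, while the liver after birth holds resident macrophages and lymphocytes.

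The sequences below show which strand of each hairpin the reads came from and which seed it carries. Each is the representative read that the authors' tables give for the line with the most copies, 5′ to 3′ in DNA letters, with the seed in capitals. It is the read from E90 unless a stage is named.
miR-142-5p: cCCATAAAgtagaaagcactac
miR-142-5p, annotated: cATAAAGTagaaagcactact
miR-142-3p: tGTAGTGTttcctactttatgg
miR-223-3p: tGTCAGTTtgtcaaatacccc
miR-150-5p: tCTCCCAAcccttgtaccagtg
miR-342-3p: tCTCACACagaaatcgcacccgtc
miR-146a-5p: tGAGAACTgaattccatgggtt
miR-146b-5p: tGAGAACTgaattccataggctgt
miR-155-5p: tTAATGCTaattgtgataggggt

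Among these reads the only shared seed was that of miR-146a-5p and miR-146b-5p. Counted from 1 at the 5′ end, miR-146b differed from miR-146a by the substitutions G18A and T21C within their shared length, both outside the seed. Reads that stop short of these bases cannot be told apart, and the authors' tables divide a read that maps to several hairpins among them, so the split between these 2 miRNAs carries that uncertainty. The representative read of miR-142-5p began 2 bases before the annotated start in each of the 3 libraries. Bases 2 to 8 of that read are therefore not those of the annotated miRNA. The representative read held 28.3%, 39.5% and 45.3% of the miR-142-5p reads at E90, P30d and P7y. Where the remaining reads began was not analysed. The other miRNAs printed here began at their annotated first base.

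On the Sscrofa10.2 build, the hairpins lay at chr12:36203904-36204009 on the plus strand (miR-142), chrX:58752416-58752517 plus (miR-223), chr6:50309879-50309955 minus (miR-150), chr16:68394511-68394607 minus (miR-146a), chr14:123301746-123301850 plus (miR-146b) and chr13:199063324-199063434 minus (miR-155). The tables give miR-342 no position on a pig chromosome: its lines, most of them under the pig entry, are in the group whose hairpins and reads were not placed on the genome. By name alone, the RefSeq annotation of a later pig build sets miR-342 within the span of EVL, a gene for an actin regulator, and miR-142 between TSPOAP1 and SUPT4H1. Whether the other hairpins are exonic or intronic was not analysed here.

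miR-142, the miRNA of all blood cells, was the most abundant of the 7 in every library, and its higher level at P30d than at E90 lay in the 5p arm. miR-142-5p stood at 374 CPM at E90 (3461 reads), 2956 at P30d (10708 reads) and 609 at P7y (6042 reads). The P30d library was the high one, at rank 39 among all mature miRNAs against 110 at E90 and 61 at P7y. miR-142-5p was 7.89-fold higher at P30d than at E90 (log2 ratio 2.98, interval 2.93 to 3.04), and its P30d to P7y log2 ratio was -2.28 (-2.32 to -2.23), or -0.92 relative to the median miRNA. At P7y it was 1.63-fold higher than at E90 by CPM (log2 ratio 0.70), and 1.72 on the log2 scale with TMM factors, a scaling that centres a trimmed mean of the ratios on 0. miR-142-3p was read at 195 CPM (1804 reads) at E90, 190 (688 reads) at P30d and 105 (1039 reads) at P7y. Its E90 to P30d log2 ratio was -0.04 (-0.17 to 0.09), -0.71 with reads without a mismatch and -1.70 with representative reads. It was thus not higher at P30d under any of these counts. The representative read of miR-142-3p held 72.7%, 23.4% and 64.0% of its reads at E90, P30d and P7y, and was a different read at P30d. Ratios of representative reads therefore compare copies of those reads and not levels of the arm. The P30d to P7y log2 ratio of miR-142-3p was -0.86 by CPM and turned to 0.13 with TMM factors and 0.69 with representative reads, and that from E90 to P7y was -0.90 by CPM and turned to 0.12.

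miR-223, which limits granulocyte production and activity, was highest at E90 and lowest at P30d, an order that miR-146b-5p shared by CPM. miR-223-3p was at 296 CPM at E90 (2740 reads), 50.2 at P30d (182 reads) and 83.1 at P7y (824 reads). The E90 library was the highest, and the P30d library, highest for miR-142-5p, was the lowest. miR-223-3p was 5.90-fold lower at P30d than at E90 (log2 ratio -2.56, interval -2.79 to -2.34). From P30d to P7y its log2 ratio was 0.73 (0.49 to 0.97) by CPM and 2.08 relative to the median, and from E90 to P7y it was -1.84 by CPM and -0.82 with TMM factors. The minor arm miR-223-5p had 155, 4 and 15 reads in the same order, which is 16.8, 1.10 and 1.51 CPM.

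Of the lymphoid miRNAs, miR-150 was scarce before birth and miR-342 was highest at P30d. miR-150-5p, which acts on the transcription factor MYB in developing lymphocytes, was at 5.95 CPM at E90 on 55 reads (4.48 to 7.74), 118 at P30d on 427 reads and 103 at P7y on 1017 reads. It stood at rank 372 at E90 and ranks 166 and 129 after birth. miR-150-5p was 19.8-fold higher at P30d than at E90 (log2 ratio 4.31, interval 3.90 to 4.74) and 17.2-fold higher at P7y than at E90 (4.11, 3.71 to 4.53). Between the postnatal libraries its log2 ratio was -0.20 by CPM, and 0.79 with TMM factors and 0.96 with DESeq2 size factors. Relative to the median, its log2 ratio into P7y was 1.15 from P30d and 5.17 from E90. miR-150-5p reached the mean of 10 CPM through the P30d and P7y libraries only.

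miR-342-3p, which is found in B and T lymphocytes and also in maturing granulocytes, was at 192 CPM at E90 (1773 reads), 788 at P30d (2855 reads) and 108 at P7y (1067 reads). P30d was the high library and P7y the low one. miR-342-3p was 4.11-fold higher at P30d than at E90 (log2 ratio 2.04, interval 1.95 to 2.12). The log2 ratio from P30d to P7y was -2.87 (-2.98 to -2.77), and -1.52 relative to the median. miR-342-3p was thus lower at P7y than at E90 by CPM (log2 ratio -0.83), a direction that turned with TMM factors (0.18) and DESeq2 size factors (0.27). The 5p arm of miR-342 had 178, 20 and 13 reads at E90, P30d and P7y.

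The miRNAs of activated immune cells had unlike ratios, also within the pair that shares a seed. miR-146a-5p was at 56.8 CPM at E90 (525 reads), 1150.4 at P30d (4168 reads) and 169 at P7y (1679 reads), and was 20.3-fold higher at P30d than at E90 (log2 ratio 4.34, interval 4.21 to 4.47). The P30d library was the high one for miR-146a-5p. Its log2 ratio was -2.76 from P30d to P7y, or -1.41 relative to the median, and 1.58 from E90 to P7y, or 2.64 relative to the median. miR-146b-5p was at 203 CPM at E90 (1878 reads), 125 at P30d (452 reads) and 191 at P7y (1891 reads), so P30d was its low library by CPM. Its log2 ratio was -0.70 (-0.85 to -0.55) from E90 to P30d, 0.61 from P30d to P7y and -0.09 from E90 to P7y, all within 2-fold by CPM. The last turned to 0.93 with TMM factors. Relative to the median, the log2 ratio into P7y was 1.97 from P30d and 0.97 from E90. With representative reads alone the directions of miR-146b-5p turned, to 0.45 (0.23 to 0.66) from E90 to P30d and -0.39 (-0.60 to -0.18) from P30d to P7y. Its representative read held 27.2%, 61.9% and 29.2% of its reads at E90, P30d and P7y, and was a different read at P7y. These 2 ratios therefore compare copies of those reads and not levels of the arm. By representative reads the ratios of miR-146a-5p were 4.56 and -3.35, so the pair then differed in size and not in direction.

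Within a library, where scaling plays no role, miR-146a had 0.279, 9.18 and 0.888 reads per miR-146b read at E90, P30d and P7y. On a log2 scale these ratios were -1.84 (-1.98 to -1.70), 3.20 (3.06 to 3.34) and -0.17 (-0.27 to -0.08). By all reads, miR-146a outnumbered miR-146b in the P30d library alone. By copies of the representative reads it had 308 against 511 at E90, 2920 against 280 at P30d and, turned, 653 against 552 at P7y. The 3p arm of miR-146b had 1, 2 and 0 reads.

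miR-155-5p, cut from the non-coding transcript of the BIC locus, had 90.3 CPM at E90 (835 reads), 132 at P30d (479 reads) and 44.8 at P7y (444 reads). Its levels lay closer together than those of miR-146a. The log2 ratio was 0.55 (0.38 to 0.71) from E90 to P30d and -1.56 (-1.75 to -1.37) from P30d to P7y, the latter only -0.21 relative to the median. From E90 to P7y it was -1.01 by CPM, and turned to 0.0040 with TMM factors and 0.088 with DESeq2 size factors. miR-155-3p had 6, 0 and 8 reads.

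**Figure D1:**
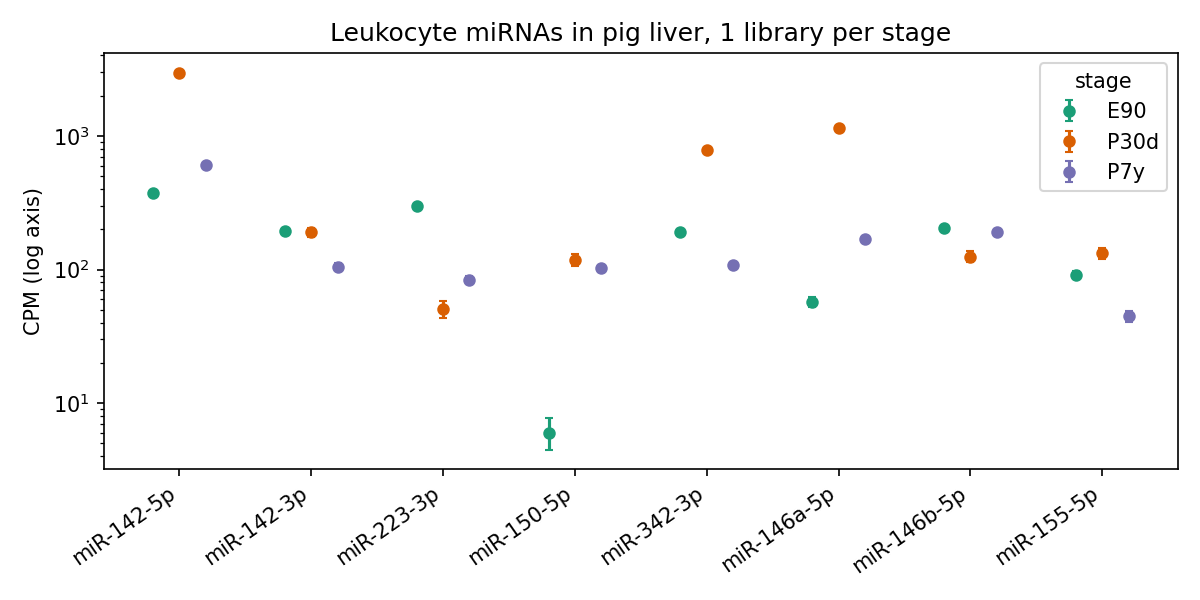
The plot shows the CPM of the 8 measured arms on a log axis, 1 point per library (green E90, orange P30d, purple P7y), with 95% counting intervals that are often smaller than the point. P30d is the highest library for miR-142-5p (2956 CPM), miR-146a-5p (1150.4) and miR-342-3p (788) and the lowest for miR-223-3p (50.2) and miR-146b-5p (125), the last of which turns with representative reads.

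Set against all miRNAs, the members lay on both sides of the median ratio in each pair. From E90 to P30d, 4 of the 8 measured arms were 2-fold or more higher (miR-142-5p, miR-146a-5p, miR-150-5p and miR-342-3p) and 1 was lower (miR-223-3p), while of all 324 miRNAs 33.3% were higher and 35.5% lower. From P30d to P7y, 0 were higher and 4 were lower (miR-142-5p, miR-146a-5p, miR-155-5p and miR-342-3p), against 13.9% and 56.2% of all. From E90 to P7y, 2 were higher (miR-146a-5p and miR-150-5p) and 2 lower (miR-155-5p and miR-223-3p), against 12.3% and 50.6%. miR-150-5p reached the mean of 10 CPM only through the P30d and P7y libraries. Its place among the arms higher than at E90, here and with the other scalings, is therefore not independent of that filter. The share of all miRNAs past 2-fold in either direction was 68.8%, 70.1% and 63% in these pairs, so a change of that size was common in these libraries. The median log2 ratio of the 8 arms was 1.29, -1.21 and -0.46, beside medians of -0.11, -1.36 and -1.06 over all.

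The counts into P7y depended on the scaling. With TMM factors, from P30d to P7y 2 arms were higher and 3 lower (26.9% and 36.4% of all), and from E90 to P7y 3 were higher and 0 lower (27.8% and 33.3% of all). With DESeq2 size factors the counts were 2 and 3 (30.6% and 31.2%) and 4 and 0 (29% and 32.1%). From E90 to P30d both scalings gave 4 higher and 1 lower, as by CPM, beside 34.3% and 34.6% of all miRNAs with TMM and 32.4% and 37.3% with DESeq2.

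**Figure D2:**
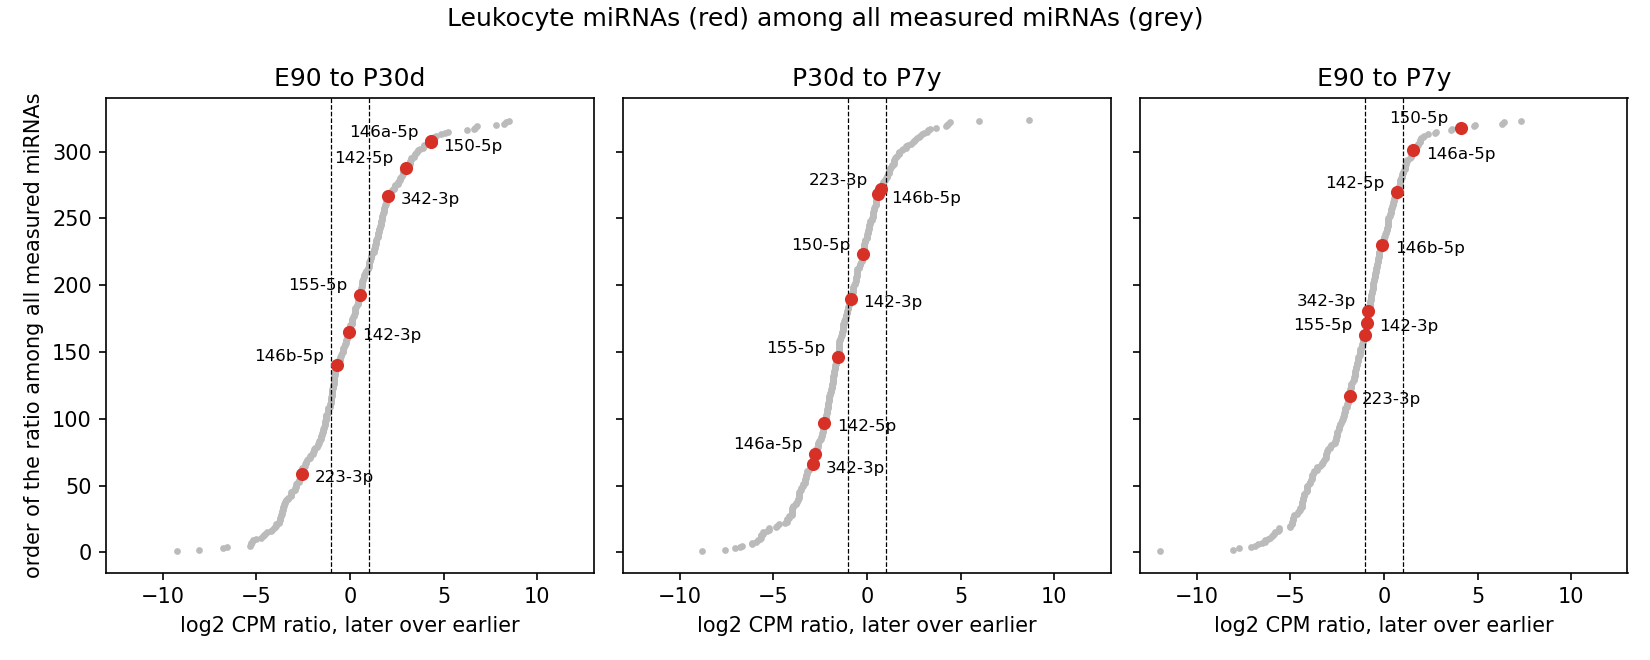
Each panel orders the log2 CPM ratios of the 324 miRNAs (grey points; x axis, later over earlier library; y axis, order) and marks the 8 measured leukocyte arms in red, with dashed lines at 2-fold. miR-150-5p and miR-146a-5p lie near the upper end from E90 to P30d, at log2 ratios of 4.31 and 4.34, and miR-223-3p in the lower part at -2.56. miR-150-5p is among the 324 only through the P30d and P7y libraries.

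Summed over the 7 miRNAs and both arms, leukocyte reads numbered 13411 in the E90 library, 19985 in P30d and 14039 in P7y. Their share of the named reads was 0.145% (0.143% to 0.148%) in E90, 0.552% (0.544% to 0.559%) in P30d and 0.142% (0.139% to 0.144%) in P7y. By CPM, the P30d library stood 3.80-fold above E90 (log2 ratio 1.93, interval 1.90 to 1.96) and 3.90-fold above P7y. The size of the latter depended on the scaling. Its log2 ratio, P30d to P7y, was -1.96 by CPM, -0.97 with TMM factors and -0.80 with DESeq2 size factors. Relative to the median miRNA it was -0.61. E90 and P7y differed by a log2 ratio of -0.04 (-0.07 to -0.002) by CPM, and by 0.98 with TMM factors and 1.07 with DESeq2 size factors, so no direction is given for that pair. In a tissue, fewer cells of a type and less RNA per cell cannot be told apart, here and in every result on these miRNAs.

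The makeup of the leukocyte reads differed between the libraries. At E90, P30d and P7y, miR-142 held 39.3%, 57.0% and 50.4% of them. miR-223 held 21.6%, 0.931% and 5.98%, and so went from the second place among the 7 to the last and then the sixth. miR-150 held a larger share in each later library, with 0.410%, 2.14% and 7.24%. miR-342 held 14.5%, 14.4% and 7.69%, miR-146a 3.91%, 20.9% and 12.0%, miR-146b 14.0%, 2.27% and 13.5%, and miR-155 6.27%, 2.40% and 3.22%. Read from the top, the order at E90 was miR-142, miR-223, miR-342, miR-146b, miR-155, miR-146a and miR-150. At P30d it was miR-142, miR-146a, miR-342, miR-155, miR-146b, miR-150 and miR-223. The P7y order was miR-142, miR-146b, miR-146a, miR-342, miR-150, miR-223 and miR-155. Neighbours whose intervals overlapped were miR-342 and miR-146b at E90, miR-155, miR-146b and miR-150 at P30d, and miR-342 and miR-150 at P7y. Levels of different miRNAs are compared here in reads, and adaptor ligation takes some sequences up more readily than others.

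**Figure D3:**
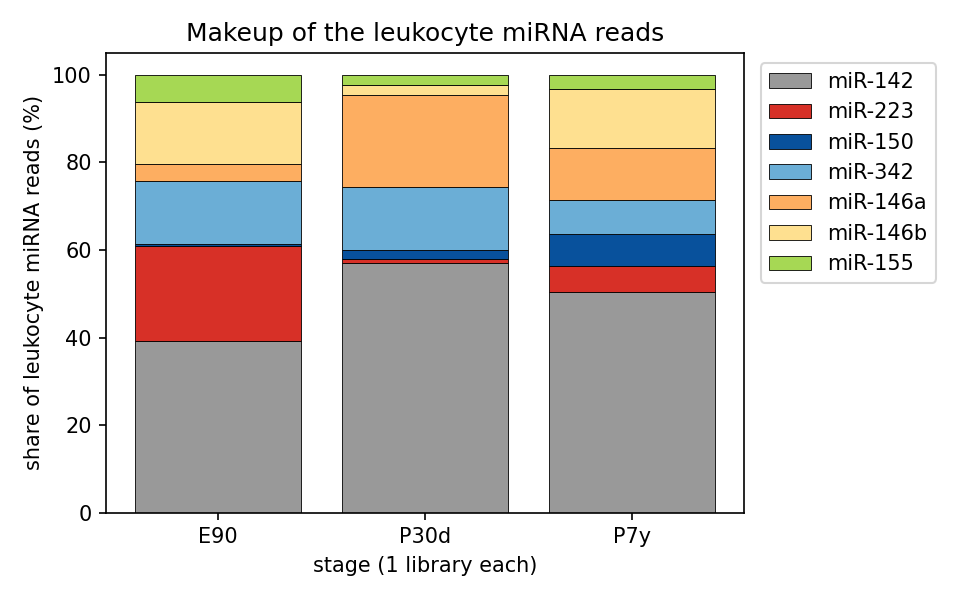
Stacked bars give each miRNA's share of the leukocyte reads (y axis, percent, both arms summed) in each library. miR-223 (red) takes 21.6% at E90 and 0.931% at P30d, and miR-146a (orange) takes 20.9% at P30d against 3.91% at E90.

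The ratio of myeloid to lymphoid miRNA reads within a library does not depend on its depth or scaling. At E90, P30d and P7y, miR-223 had 2895, 186 and 839 reads, and miR-150 and miR-342 together had 2006, 3302 and 2097. Myeloid reads outnumbered lymphoid reads 1.44 to 1 at E90 (log2 0.53, interval 0.45 to 0.61). Lymphoid reads outnumbered myeloid reads 17.8 to 1 at P30d (log2 -4.15, -4.37 to -3.94) and 2.50 to 1 at P7y (log2 -1.32, -1.44 to -1.21). At P30d, 2875 of the 3302 lymphoid reads were miR-342, which is also found in maturing granulocytes. miR-150 alone outnumbered miR-223 2.30 to 1 at P30d and 1.21 to 1 at P7y. Between libraries, the ratio of miR-223 to both lymphoid miRNAs was 25.6-fold lower at P30d than at E90. It was 7.10-fold higher at P7y than at P30d and 3.61-fold lower at P7y than at E90. The order E90, P7y, P30d from high to low held under all 6 alternatives tried. The lymphoid side was changed to miR-150 alone, or to miR-150, miR-342 and miR-155 together. The others were reads without a mismatch, representative reads, the more abundant arms, and leaving out lines off the mature sequences.

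miR-342 supplied most of the lymphoid reads, and its partner behaved differently. Over miR-342 alone the log2 ratio of miR-223 was 0.57, -3.95 and -0.36 at E90, P30d and P7y. Over miR-150 alone it was 5.72 at E90, where miR-223 had 52.6 reads per miR-150 read, -1.20 at P30d and -0.28 at P7y. The excess of miR-223 at E90 rested on which miRNAs were taken as lymphoid and on how reads were counted. With miR-155 added to the lymphoid side the log2 ratio at E90 was 0.024 (-0.051 to 0.099). With copies of the representative reads alone the log2 ratio over both lymphoid miRNAs was -0.25, -5.34 and -1.79.

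For each 100 miR-142 reads of both arms, the E90, P30d and P7y libraries had 55.0, 1.63 and 11.8 miR-223 reads. miR-150 had 1.04, 3.75 and 14.4 on the same base, higher in each later library. miR-342 had 37.1, 25.2 and 15.3, lower in each later library. From E90 to P30d the ratio of miR-342 was thus smaller than that of both miR-142 arms summed. miR-146a had 9.97, 36.6 and 23.7, miR-146b 35.7, 3.98 and 26.7, and miR-155 16.0, 4.20 and 6.38. Relative to both miR-142 arms summed, the low library was P30d for miR-223, miR-146b and miR-155. From E90 to P30d the log2 CPM ratio was 2.98 for miR-142-5p and -0.04 for miR-142-3p, so this base depends on the 5p arm. For that pair it was 0.54 for miR-155 and 1.91 for miR-342, both above that of miR-142-3p. For miR-146b (-0.70) and miR-223 (-2.61) it was below. Relative to miR-142-3p, miR-155 and miR-342 were thus higher at P30d than at E90.

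**Figure D4:**
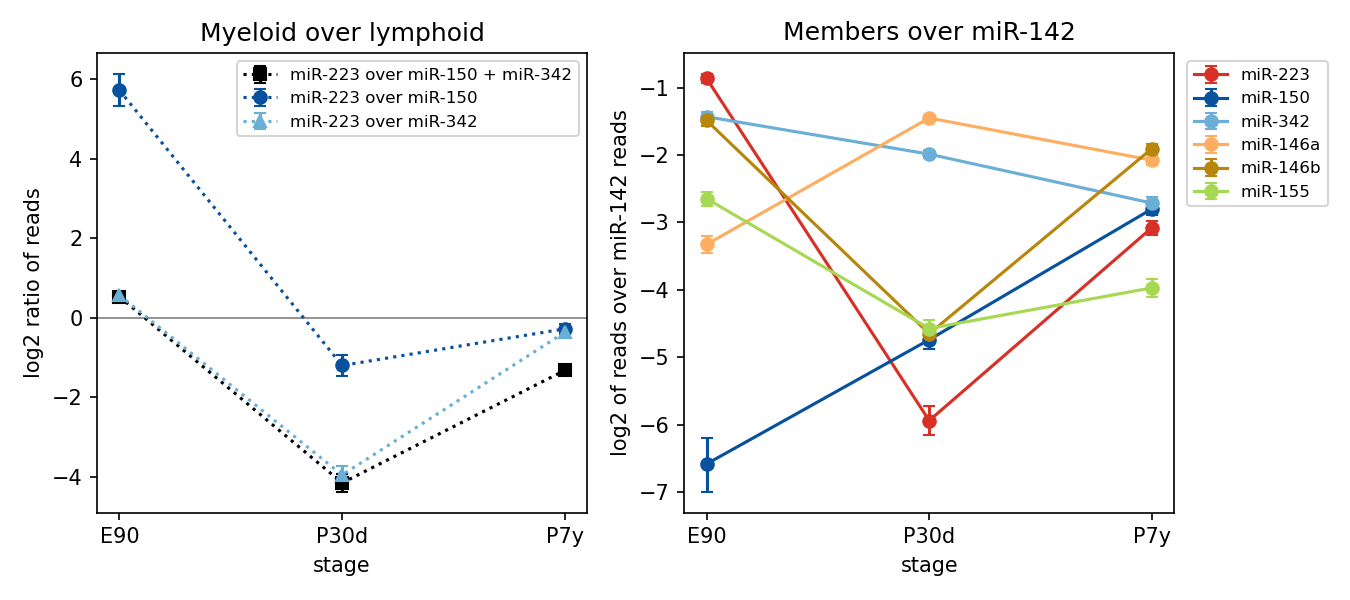
The left panel gives the log2 ratio of miR-223 reads to lymphoid miRNA reads in each library, with the line of equal reads at 0, and the right panel the log2 of each miRNA's reads over miR-142 reads, with 95% counting intervals. miR-223 over both lymphoid miRNAs goes from 0.53 at E90 to -4.15 at P30d and -1.32 at P7y, and over miR-142 miR-150 is the only line that is higher in each later library.

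The arm taken up differed between libraries for miR-142 and miR-342. The 5p arm gave 65.7% (64.4% to 67.0%) of the miR-142 reads in E90, 94.0% (93.5% to 94.4%) in P30d and 85.3% (84.5% to 86.1%) in P7y. The log2 balance of 5p over 3p was 0.94, 3.96 and 2.54, a shift of 3.02 from E90 to P30d. miR-342 was read mostly from its 3p arm, and its 5p share was 9.12% in E90, 0.696% in P30d and 1.20% in P7y. For miR-223 the 5p share was 5.35% at E90, 2.15% at P30d (0.589% to 5.41%, on 4 reads) and 1.79% at P7y. Such shifts were common: over the 179 hairpins that reached 50 reads per library, the median absolute shift from E90 to P30d was 1.90, 43 hairpins shifted as much as miR-142 and 18 as much as miR-342. miR-146a, miR-146b, miR-150 and miR-155 gave at least 98.2% of their reads from the 5p arm in each library.

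**Figure D5:**
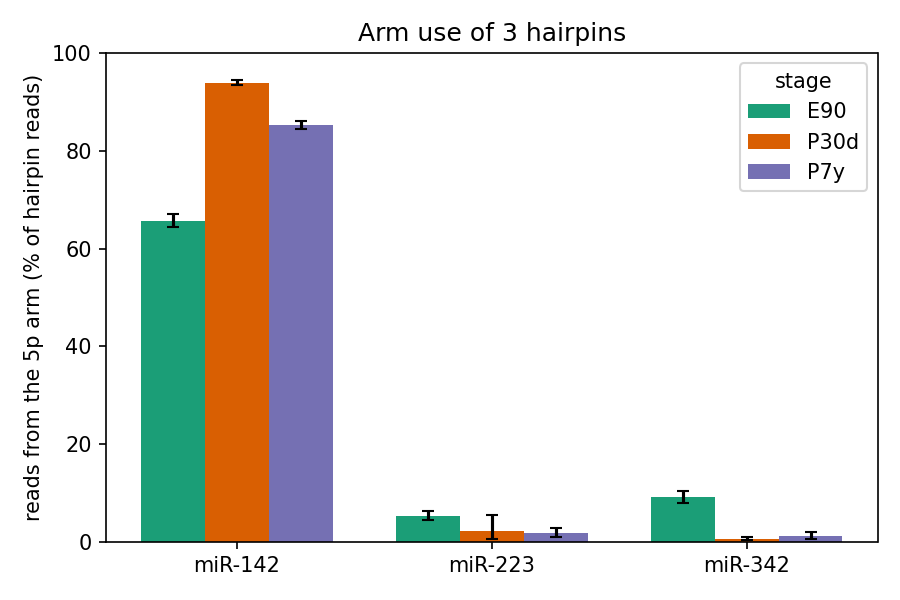
Bars starting at 0 give the share of each hairpin's reads that came from the 5p arm (y axis, percent), by library, with exact 95% counting intervals. The miR-142 bar goes from 65.7% at E90 to 94.0% at P30d, and the miR-342 bar from 9.12% to 0.696%.

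The 3′ ends of several members carried bases that their hairpins do not hold, here in capitals to show where a read departs from the hairpin.
miR-146a-5p, P30d: tgagaactgaattccatgggttAA
miR-150-5p, P30d: tctcccaacccttgtaccagtgT
miR-142-3p, P30d: tgtagtgtttcctactttatggT
miR-146b-5p, P7y: tgagaactgaattccataggctgG

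Lines whose representative read ran past the annotated end with such bases held 12.4% of the miR-146a-5p reads at E90 (9.69% to 15.5%), 13.6% at P30d and 18.6% at P7y (16.8% to 20.6%). For miR-150-5p they held 5.45% (1.14% to 15.1%, on 3 reads) in E90, 26.7% (22.6% to 31.2%) in P30d and 10.5% (8.70% to 12.6%) in P7y. In the P30d library the read with an added T was the representative read with the most copies for both miR-142-3p and miR-150-5p. For miR-150-5p this was close, with 113 copies against 111 of the read without the T. Reads without any mismatch made up 97.3%, 64.7% and 95.7% of miR-142-3p at E90, P30d and P7y, and 89.1%, 53.6% and 62.1% of miR-150-5p. The medians over all miRNAs with 50 reads or more were 87.4%, 84.8% and 82.1%. miR-146b-5p went the other way, with 69.8%, 89.5% and 59.8%.

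Of 13 other miRNA names known from blood-forming or activated immune cells, 26 arms had a read and 15 reached 10 CPM. From E90 to P30d 5 of the 15 were 2-fold or more higher and 3 lower, beside 33.3% and 35.5% of all 324 miRNAs. From P30d to P7y the counts were 0 and 9 (13.9% and 56.2% of all), and from E90 to P7y 0 and 6 (12.3% and 50.6% of all). The medians were 0.62, -1.49 and -0.86, beside -0.11, -1.36 and -1.06 over all. miR-21-5p, made in many activated cells, was at 14245, 17052 and 18625 CPM at E90, P30d and P7y, with no pair past 2-fold by CPM, although relative to the median its log2 ratio from E90 to P7y was 1.45. miR-125a-5p, of haematopoietic stem cells, was at 3671, 4281 and 7147 CPM. miR-181a-5p, which tunes T cell receptor signalling, was at 1255, 3728 and 1007 CPM and so had its high library at P30d, as miR-342-3p did. miR-339-5p was at 637, 984 and 351 CPM.

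The miRNAs nearest in pattern, by the distance in the log2 ratios between successive libraries over the 3 libraries, were found for the more abundant arm of each member. They were miR-22-3p (distance 0.25) and miR-203-3p (0.31) for miR-142-5p, and miR-200b-3p (0.17) and miR-507-3p (0.25) for miR-223-3p. miR-7-3p (0.07) and miR-6236-3p (0.09) lay nearest to miR-342-3p. The nearest to miR-146b-5p were miR-126-3p (0.06), the endothelial miRNA, and miR-143-5p (0.21), of smooth muscle. miR-155-5p had miR-339-5p (0.11) and miR-191-5p (0.23), and miR-146a-5p had miR-374a-3p (0.71) and miR-574-3p (0.73). miR-150-5p had no close neighbour, with miR-504-5p at 1.20 and let-7b-5p at 1.63.

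Markers of other cell types differed between the libraries too. Of the named reads, the 5 hepatocyte miRNAs held 23.8%, 32.6% and 19.3% at E90, P30d and P7y, and the 3 erythroid miRNAs held 0.724%, 0.303% and 0.182%. Whether the erythroid reads came from circulating blood or from blood formation in the liver was not tested. From E90 to P30d the log2 CPM ratio was 0.29 for miR-144-3p, but -1.36 for miR-486-5p, -1.56 for miR-451-5p and -4.42 for miR-144-5p. Endothelial miR-126 held 1.33%, 1.19% and 1.36%, and the 4 miRNAs of stellate and smooth muscle cells 5.93%, 6.66% and 11.4%. The 3 biliary and epithelial miRNAs held 0.192%, 0.0259% and 0.0888%. These are sums, and arms within a list went different ways. From P30d to P7y the log2 CPM ratio was 2.53 for miR-143-3p and 2.17 for miR-145-5p, but -3.99 for miR-199a-5p and -1.48 for miR-214-3p. From E90 to P30d it was -3.63 for miR-375-3p and -2.42 for miR-200b-3p, but 1.26 for miR-141-3p. The 3 striated muscle miRNAs summed to 16.7, 42.2 and 30.2 CPM, and of 2 neural miRNAs 1 had reads, at 6.27, 6.35 and 16.3 CPM. By these sums alone, the erythroid and biliary shares had their high library at E90, as miR-223 did. The hepatocyte share had its high library at P30d, as miR-142-5p, miR-146a-5p and miR-342-3p did. Its 5p arms did not all share that order. From P30d to P7y the log2 CPM ratio was -2.50 for miR-122-5p, -1.26 for miR-194-5p, -3.43 for miR-802-5p and -3.92 for miR-885-5p. For miR-192-5p it was 0.50, after -0.002 from E90 to P30d, so the high library of miR-192-5p was P7y. P30d was also the library with the fewest reads. The part of these markers and of depth in the results was not tested.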

How the data were processed

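Small RNA of 14 to 40 nt from pig liver was sequenced in 3 libraries, grouped by the stage in their labels. Each library has 1 table, in which every hairpin arm takes at least a line. Reads were mapped to miRBase hairpins and to the pig genome, per the file headers, and hairpins sorted into groups by how they mapped. The deposited numbers of reads are expected counts: where a read fits more than 1 hairpin, the authors divided it. The deposited copies of the representative read, which per the file headers is the read with the best mapping score, are counts. The genome build was Sscrofa10.2, per the submitters' processing notes. How reads were trimmed and aligned is not given in the sources used here.

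Expected counts were summed per mature miRNA and rounded. Of 1007 names, 20 were merged into others that shared a representative read of 18 nt or more holding over 50% of their reads, and 14 rounded to 0 reads, leaving 973. CPM were taken per 1000000 reads of named miRNAs, and 324 miRNAs had a mean of 10 CPM or more. Ratios have exact conditional binomial 95% intervals, CPM exact Poisson and shares Clopper-Pearson intervals, and the arm balance had 0.5 added to each arm. A miRNA was counted as higher or lower at 2-fold or more. A count of 0 was set to 3 reads in a ratio. All 7 members and both arms were described. Of the other haematopoietic miRNAs the 4 with the highest mean were named, and for each member the 2 nearest in pattern. The members and lists were chosen with earlier results of these data known. RefSeq names for Sscrofa11.1 served only to name neighbouring genes.

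Alternatives used TMM factors (edgeR 4.0.16) and size factors (DESeq2 1.42.0). The software was R 4.3.3, Python 3.11.15, SciPy 1.17.1, NumPy 2.4.6, pandas 2.3.3 and matplotlib 3.10.9. Ratios and intervals were tested on simulated data.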

Additional observations from a re-analysis of the deposited data

How the results depend on the processing

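With 1 library per stage, leaving out a replicate and testing were not possible. No paired analysis was possible because each stage has 1 library. The summed leukocyte log2 ratio from E90 to P30d, 1.93 by CPM, was 1.86 with DESeq2 size factors, 1.89 with predicted hairpins in the total, 1.86 with reads without a mismatch, 2.30 with known pig hairpins that map to the genome only (which leaves out all lines of miR-223 and miR-342), 2.25 with representative reads only, 1.43 without miR-142 and 2.13 with the more abundant arm of each member. From P30d to P7y, -1.96 became -0.97 with TMM factors, -0.80 with DESeq2 size factors, -1.64 without the 5 most abundant miRNAs in the total, -1.91 with predicted hairpins, -1.76 without miR-142 and -2.03 with the more abundant arm. From E90 to P7y, -0.04 became 0.98 with TMM, 1.07 with DESeq2, 0.29 without the 5 most abundant, -0.089 without mismatches, 0.33 with known pig hairpins, 0.26 with representative reads, -0.33 without miR-142 and 0.10 with the more abundant arm.

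Arms 2-fold higher from P30d to P7y, 0 by CPM, were 2 with TMM, 2 with DESeq2, and 1 each without the 5 most abundant, without mismatches and with representative reads. Arms lower from E90 to P30d, 1 by CPM, were 0 with known pig hairpins, 2 with representative reads and 3 with no filter. From E90 to P7y, arms higher, 2 by CPM, were 4 with DESeq2 and 1 at a mean of 100 CPM. Arms lower, 2 by CPM, were 0 with TMM and with DESeq2, 4 with no filter, and 1 each without the 5 most abundant, with predicted hairpins, with known pig hairpins and at 100 CPM. miR-155-5p from E90 to P7y turned from -1.01 to 0.0040 with TMM and 0.088 with DESeq2. Of 24 ratios of measured arms, 13 kept direction and side of 2-fold with TMM, 13 with DESeq2, 14 with representative reads, 19 without the 5 most abundant, 22 without mismatches and 23 with predicted hairpins, and 17 of 18 did with known pig hairpins.

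The log2 ratio of miR-223 to lymphoid reads, 0.53, -4.15 and -1.32 at E90, P30d and P7y, was 5.72, -1.20 and -0.28 over miR-150 alone, and -0.25, -5.34 and -1.79 with representative reads. With miR-155 added it was 0.024 at E90 and -1.60 at P7y, and without mismatches -4.42 at P30d and -1.16 at P7y. The arm balance without mismatches was 4.53 for miR-142 at P30d and -8.08 and -7.50 for miR-342 at P30d and P7y. Leaving out lines whose representative read is no mature member sequence, chosen after seeing the data, moved neither the summed ratios nor the myeloid to lymphoid ratios beyond their counting intervals. The scalings shift every ratio of a pair alike, and the other alternatives count fewer reads or miRNAs. Beyond that the cause was not tested. Depth limits miR-150 at E90 (55 reads) and the minor arms.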

Other observations

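Representative reads of the members were shorter at P7y than at P30d for 5 of the 8 measured arms and longer for 0, while of 317 miRNAs with a read in both libraries 20.8% were shorter and 18.3% longer. From E90 to P7y 3 of the 8 were shorter and 0 longer, beside 17.3% shorter and 13.2% longer of 318. miR-142-3p and miR-150-5p were shorter than at P30d by the added T, for miR-150-5p on 113 against 111 copies at P30d. The reads shorter at P7y than in both other libraries were those of miR-142-5p, miR-223-3p and miR-342-3p, cCCATAAAgtagaaagcact, tGTCAGTTtgtcaaataccc and tCTCACACagaaatcgcacccgt, with the seed in capitals.

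miR-223-5p at E90 had a representative read of 29 nt, cGTGTATTtgacaagctgagttggacact, with 25 copies among 155 reads, whereas at P30d and P7y the representative read was the 22 nt cGTGTATTtgacaagctgagtt, with 2 and 11 copies. All 29 bases matched the hairpin.

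A few reads lay outside the annotated arms: 8 reads of miR-142 at P7y (0.113% of its reads), and 2, 4 and 5 reads of miR-150 at E90, P30d and P7y (3.64%, 0.937% and 0.492%). Within 50000 bases of the 6 placed hairpins, predicted hairpins without a known miRNA gave 1 table line with 2 reads, near miR-150 at E90.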
